A study of Mus musculus with 30 samples.

Results

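Lipolysis was followed through 8 genes, selected by symbol from the 55357 genes of the deposited expression table: the enzymes Pnpla2, Pnpla3, Lipe, Mgll and Ces1d, and the regulators Abhd5, G0s2 and Hilpda. The RNA came from liver, brown fat (BAT, brown adipose tissue) and sWAT, a label that commonly stands for subcutaneous white fat. The mice were of the C57BL/6N strain. In each tissue, 5 libraries came from mice given HFD (high-fat diet) with imeglimin, an oral glucose-lowering drug, and 5 from mice given HFD alone, so every mouse compared here received HFD. The sample labels, used here, give 5 libraries in each of the 6 groups, although the series' design text speaks of 4 against 4. Whether each library was a separate animal is not given, so the spread behind every p-value may be in part technical. The title places the work in a study of systemic metabolism in obese mice.

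Triglyceride stored in a lipid droplet is taken apart stepwise. ATGL, encoded by Pnpla2, removes the first fatty acid, hormone-sensitive lipase, encoded by Lipe, acts mainly on the diglyceride that is left, and monoglyceride lipase, encoded by Mgll, releases the last fatty acid from glycerol. CGI-58, encoded by Abhd5, is the co-activator of ATGL, while the small proteins encoded by G0s2 and Hilpda inhibit it. Pnpla3 encodes a lipid droplet protein of the same family as ATGL, and Ces1d encodes a carboxylesterase that hydrolyses triglyceride in liver and fat. In white fat this pathway supplies fatty acids to the rest of the body, in brown fat it feeds heat production, and in liver it draws on stored lipid. Much of its control acts on the proteins, by phosphorylation and by binding at the droplet surface, which transcript levels do not show.

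In the GRCm39 coordinates of the deposited table, Pnpla2 lies on chromosome 7 at 141035111 to 141040656 on the plus strand and Lipe on the same chromosome at 25078952 to 25098135 on the minus strand. Mgll and Hilpda both lie on the plus strand of chromosome 6, at 88701394 to 88805342 and at 29272487 to 29275445. Pnpla3 lies on chromosome 15 at 84052038 to 84071437 (plus), Abhd5 on chromosome 9 at 122180673 to 122210589 (plus), G0s2 on chromosome 1 at 192954469 to 192955525 (minus) and Ces1d on chromosome 8 at 93892696 to 93924466 (minus). The level of Ces1d carries an added doubt, because its GENCODE transcript is 82.99% identical to that of its neighbour Ces1g over 1664 aligned bases. Identity was 80.1% to 83.1% to Ces1a, Ces1b, Ces1c, Ces1e, Ces1f and Ces1h, for Ces1b and Ces1f over only 454 and 362 bases of a short Ces1d transcript. The authors' quantification could split reads among these Ces1 genes. Abhd5 and Lipe share 950 and 453 identical bases with the opposite-strand genes A730085K08Rik and 4732471J01Rik, at most 0.333 and 0.834 TPM in any library. G0s2 lies within the span of Lamb3 on the opposite strand, which averaged 5.07 TPM over the 30 libraries, and other genes overlapping a member averaged at most 2.80 TPM.

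The promoters of 4 members are printed first, from RefSeq in build GRCm38.p6 with 250 bases before and 50 after the annotated start. Pnpla3, Mgll and Lipe are shown because they had the lowest p-values with imeglimin in BAT, and Pnpla2, the enzyme of the first step, is set beside them. Capitals mark the E-box CACGTG and the FoxO motif TGTTTAC on either strand. The windows are chr15:84167566-84167865 (plus) for Pnpla3, chr6:88724162-88724461 (plus) for Mgll, chr7:25395938-25396237 (minus) for Lipe and chr7:141454938-141455237 (plus) for Pnpla2.
Pnpla3: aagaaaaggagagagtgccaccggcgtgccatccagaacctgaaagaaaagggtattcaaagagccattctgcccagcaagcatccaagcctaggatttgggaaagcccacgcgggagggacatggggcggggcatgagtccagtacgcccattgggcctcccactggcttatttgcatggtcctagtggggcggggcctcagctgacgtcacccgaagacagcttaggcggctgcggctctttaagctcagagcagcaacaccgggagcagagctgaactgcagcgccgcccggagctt
Mgll: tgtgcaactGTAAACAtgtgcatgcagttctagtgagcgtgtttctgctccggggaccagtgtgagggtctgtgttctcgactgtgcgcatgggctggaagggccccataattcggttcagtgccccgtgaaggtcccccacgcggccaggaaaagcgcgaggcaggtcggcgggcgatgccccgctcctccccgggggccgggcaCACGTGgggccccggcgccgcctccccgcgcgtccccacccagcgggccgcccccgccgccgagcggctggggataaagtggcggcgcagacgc
Lipe: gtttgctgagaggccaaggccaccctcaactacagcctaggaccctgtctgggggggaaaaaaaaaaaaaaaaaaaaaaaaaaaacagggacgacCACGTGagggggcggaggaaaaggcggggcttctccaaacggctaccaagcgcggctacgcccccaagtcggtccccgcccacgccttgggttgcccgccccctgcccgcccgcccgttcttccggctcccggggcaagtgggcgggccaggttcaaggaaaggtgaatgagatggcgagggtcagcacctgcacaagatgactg
Pnpla2: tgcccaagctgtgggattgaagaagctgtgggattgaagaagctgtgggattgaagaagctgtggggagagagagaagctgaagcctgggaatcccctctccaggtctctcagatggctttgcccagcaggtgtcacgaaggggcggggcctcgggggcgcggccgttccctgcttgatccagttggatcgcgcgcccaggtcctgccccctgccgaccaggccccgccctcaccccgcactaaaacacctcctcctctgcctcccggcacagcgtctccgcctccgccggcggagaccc

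The E-box stands at -44 from the start in Mgll and at -155 in Lipe, and it was found in 7.15% of the 32851 mouse promoter windows searched. It contains the hypoxia response core ACGTG on both strands, so each E-box is also a match to that core. Mgll also holds the FoxO motif at -241 (3.65% of all windows), and a second window of Lipe holds it at -119. The Pnpla3 and Pnpla2 windows hold neither. Pnpla3 has CCAAT at -99 (37.4% of all windows). GGGCGG, present in 35.7% of all windows, stands at 3 places in Pnpla3, 2 in Pnpla2, 6 in Lipe and 1 in Mgll, on either strand and partly overlapping in Lipe. The SREBP motif TCACNCCAC, present in 1.24% of all windows, and the TATA box TATAAA, in 13.6%, were in none of the 10 windows of the 7 members that the table covers. A second window of Hilpda holds ACGTG at -43 (19.6% of all windows), and Abhd5 holds the nuclear receptor motif AGGTCA at -69 on the opposite strand (16.3%). Ces1d has no entry there. These matches describe letters only.

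Values are TPM, in which estimated counts are divided by transcript length and every library is scaled to the same total of 1000000, so depth is unknown. The tissue labels were checked against markers. Ucp1, the uncoupling protein of brown fat, was at 4102 TPM or more in BAT, Alb at 45846 TPM or more in liver, and Adipoq at 2950.0 TPM or more in sWAT and at 0.832 TPM or less in liver. Some libraries stood apart. In BAT, HFD replicate 79 and imeglimin replicate 94 held much skeletal muscle transcript (Acta1 at 1493 TPM in imeglimin replicate 94 and 1804 TPM in HFD replicate 79), with the 7 listed muscle markers summing to 5.61 to 4165 TPM in imeglimin BAT and 72.5 to 4761 TPM in HFD BAT. Hepatocyte markers varied among BAT libraries too, summing to 23.4 to 1553 TPM with imeglimin and 15.4 to 874 TPM with HFD. In sWAT, imeglimin replicate 88 held B cell and hepatocyte transcripts (Cd79a at 589 TPM and Alb at 6876 TPM), and its 6 adipocyte markers summed to 9082 TPM. Those markers summed to at most 22506 TPM in imeglimin sWAT and to 19775 to 21347 TPM in HFD sWAT. In every BAT library, transcripts encoded by mitochondrial DNA took up a large share of the total, 38.6% to 39.0% with imeglimin and 37.1% to 40.8% with HFD, against 15.04% or less in any liver or sWAT library. In bulk tissue, fewer cells of a type and less RNA per cell cannot be told apart.

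Between tissues the lipolytic genes were arranged differently. Summed over the 8 genes, liver held 616 ± 67.8 TPM with imeglimin and 752 ± 53.4 TPM with HFD, BAT 3284 ± 349 and 3683 ± 412 TPM, and sWAT 7272 ± 1263 and 6531 ± 312 TPM (SD, n = 5 each). In liver the carboxylesterase Ces1d made up 52.0% of that sum with imeglimin and 49.6% with HFD, and the inhibitor G0s2 20.9% and 27.7%, whereas Pnpla2 made up 7.90% and 5.79%. In BAT Pnpla2 led with 40.1% and 36.9%. In sWAT Pnpla2 made up 31.0% and 27.5%, and Mgll took a larger place, 15.8% and 20.4%, than its 7.65% and 8.25% in BAT.

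**Figure D1:**
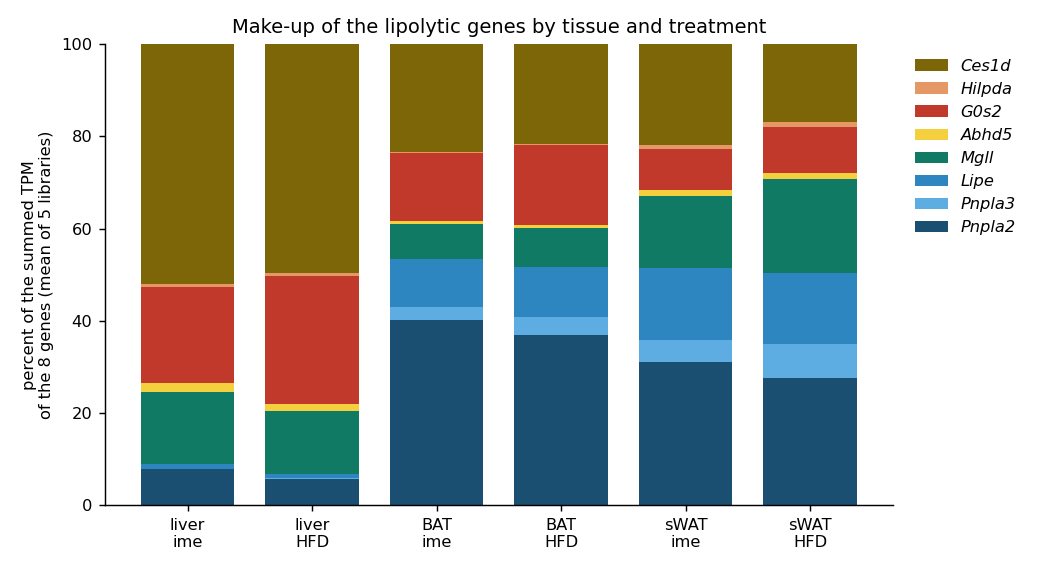
Stacked bars give the percent of the summed TPM of the 8 lipolytic genes held by each gene, as the mean of 5 libraries per tissue and treatment (ime = HFD with imeglimin). Ces1d and G0s2 fill most of the liver bars, while Pnpla2 is the largest part of the BAT and sWAT bars.

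The enzyme of the first step, Pnpla2, was the most abundant member in both fat tissues. On HFD it stood at 33.4, 36.0, 37.2, 53.8 and 55.7 TPM in liver, at 1309, 1309, 1353, 1357 and 1410.5 TPM in BAT and at 1606, 1676, 1709.6, 1984 and 1998 TPM in sWAT. The 3 tissues did not overlap, which was common in these data. Between liver and BAT, 64.9% of all genes tested had groups that did not overlap. That share was 83.8% between liver and sWAT and 82.9% between BAT and sWAT. Liver lay far below both fats. Pnpla3, its relative, was nearly confined to fat: it ranged from 0 to 2.92 TPM in HFD liver, from 119 to 162 TPM in HFD BAT and from 374 to 626 TPM in HFD sWAT. It was listed at 0 in 1 liver library of each treatment, imeglimin replicate 88 and HFD replicate 79.

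Lipe, the lipase of the diglyceride step, averaged 6.18 ± 1.57 TPM in HFD liver, 405 ± 35.9 TPM in HFD BAT and 995 ± 148 TPM in HFD sWAT. Mgll, which completes the reaction, was spread more evenly, at 103 ± 10.5, 301 ± 19.9 and 1331 ± 104 TPM in the same 3 tissues. Ces1d was the member with the most transcript in liver, at 374 ± 82.2 TPM on HFD, and still stood higher in HFD BAT (796 ± 83.7 TPM) and HFD sWAT (1109 ± 159 TPM). The means in this paragraph are over 5 libraries with the SD.

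Among the regulators, the co-activator Abhd5 was low everywhere, at 9.87 to 14.5 TPM in HFD liver, 21.7 to 26.6 TPM in HFD BAT and 75.1 to 108 TPM in HFD sWAT. The inhibitor G0s2 was abundant in all 3 tissues and variable within each, at 139 to 347 TPM in HFD liver, 324 to 1022 TPM in HFD BAT and 183 to 869 TPM in HFD sWAT. Its coefficient of variation ran from 37.5% to 69.9% over the 6 groups, against 3.12% to 28.5% for Pnpla2. Hilpda, the hypoxia-inducible inhibitor, ranged from 3.24 to 7.04 TPM in HFD liver, 8.22 to 13.9 TPM in HFD BAT and 41.8 to 97.4 TPM in HFD sWAT.

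**Figure D2:**
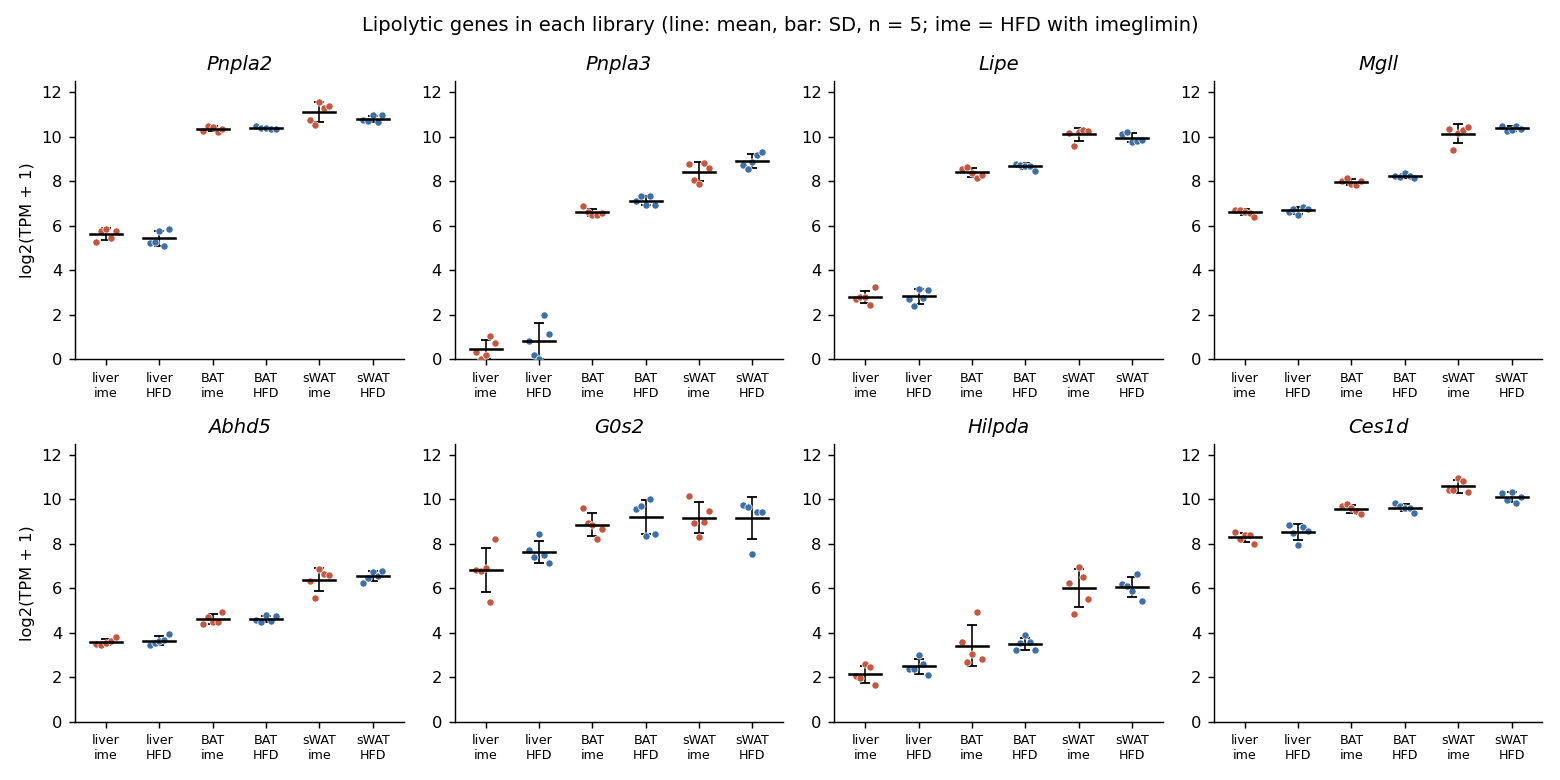
Each point is a library, as log2(TPM + 1), with the mean as a line and the SD as a bar (n = 5), for each of the 8 genes in liver, BAT and sWAT, with imeglimin (red, left) and with HFD (blue, right). On HFD the step from liver to either fat is larger for every gene than any gap between treatments. BAT and sWAT lie close for Pnpla2, Ces1d and G0s2, and G0s2 scatters widely within every group.

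Tissue differences on HFD were tested with limma on log2(TPM + 1) over 14023 genes, with Benjamini-Hochberg adjustment and a threshold of 0.05. In liver minus BAT, 8 of 8 members were lower, where 30.2% of all genes tested were called lower, and the median over the members was -1.56 against 0.16 over all genes. The largest differences were those of Pnpla3 (-6.31, SE 0.284, adjusted p = 3.52e-12), Lipe (-5.85, SE 0.136, adjusted p = 1.05e-15) and Pnpla2 (-4.96, SE 0.125, adjusted p = 2.56e-15), and the smallest those of Abhd5 (-0.99), Hilpda (-0.998) and Ces1d (-1.11). With Pnpla3 so low in liver, the size of its difference depends on the amount added to TPM, and it was -7.86 (SE 0.656) with 0.1 in place of 1. In liver minus sWAT, 8 of 8 members were lower, where 76.1% of all genes were, with a member median of -3.62 against -1.03. In BAT minus sWAT, 7 of 8 were lower, where 83.7% of all genes were, so that count is no result about the members. Their median was -1.54 against -1.26, and G0s2 did not differ beyond its spread (0.05, SE 0.419, 95% interval -0.84 to 0.94, adjusted p = 0.906).

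The BAT and sWAT comparison depended on how libraries were scaled. Scaling by the median ratio over genes, in place of the TPM total, moved the median of all genes in BAT minus sWAT by 1.24 on the log2 scale. On that scale Pnpla2 was higher in BAT (1.07, adjusted p = 7.66e-06), as were Ces1d (1.005, adjusted p = 4.37e-05) and G0s2 (1.53, adjusted p = 0.00404), and Lipe did not differ beyond its spread (0.19, adjusted p = 0.198). Mgll (-0.66), Abhd5 (-0.48) and Hilpda (-1.14) were lower in BAT on both scales, while Pnpla3 was lower only by TPM (-1.79 by TPM, -0.31 with adjusted p = 0.416 by median ratio). Relative to the median of all genes, the TPM differences were 0.86 for Pnpla2 and 0.79 for Ces1d, against -0.88 for Mgll and -1.29 for Hilpda. In liver minus BAT, every member kept its sign and call under that scaling. In liver minus sWAT, G0s2 alone lost its call (-0.30).

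Ratios of TPM between members within a library do not depend on how the library is scaled. They were tested as log2 ratios of TPM + 1, which pulls ratios with a low member towards 1, and compared by exact two-sided permutation tests, which with 5 against 5 cannot go below 0.00794, and the tests between tissues were added after the data had been seen. On HFD, 14 of 15 ratios differed between tissues at that smallest exact p (adjusted p = 0.0085 over the 15), and in imeglimin libraries 14 of 15 also had an adjusted p under 0.05. Ratios of other gene pairs were not tested. Of all single genes tested, 64.9% to 83.8% had groups that did not overlap between 2 tissues on HFD. Such counts are therefore no result about the members. With nothing added to TPM, chosen after seeing the data, 13 of 15 on HFD were at the smallest p and 14 of 15 again had an adjusted p under 0.05. The ratio that changed was Pnpla2 over Hilpda, at 6.52 to 17.2 in HFD liver and 16.5 to 47.5 in HFD sWAT, whose groups then overlapped (difference -1.58 on the log2 scale, exact permutation p = 0.0159). The ratio of ATGL transcript to that of its inhibitor, Pnpla2 over G0s2, was 0.155 to 0.401 in HFD liver, 1.28 to 4.18 in HFD BAT and 1.97 to 10.9 in HFD sWAT. Every HFD liver library thus had more G0s2 than Pnpla2, and every HFD fat library the reverse. BAT and sWAT were not told apart by this ratio (difference -0.46 on the log2 scale, exact permutation p = 0.492).

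For each TPM of Abhd5 there were 2.87 to 4.73 TPM of Pnpla2 in HFD liver, 50.2 to 62.5 in HFD BAT and 17.1 to 22.8 in HFD sWAT. All 3 tissues stood apart from each other in this balance of enzyme and co-activator, with liver lowest and BAT highest. The balance of the last steps, Mgll over Lipe, was 11.3 to 25.9 in HFD liver, 0.673 to 0.825 in HFD BAT and 1.04 to 1.61 in HFD sWAT, so that Lipe exceeded Mgll in every HFD BAT library and in no HFD library of liver or sWAT. Lipe over Pnpla2 was 0.112 to 0.168 in HFD liver, 0.265 to 0.316 in HFD BAT and 0.429 to 0.707 in HFD sWAT, and did not overlap between the tissues. How often ratios of other gene pairs stand apart in this way was not measured. Pnpla2 over Hilpda was 6.52 to 17.2, 98.0 to 172 and 16.5 to 47.5 in the same order.

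**Figure D3:**
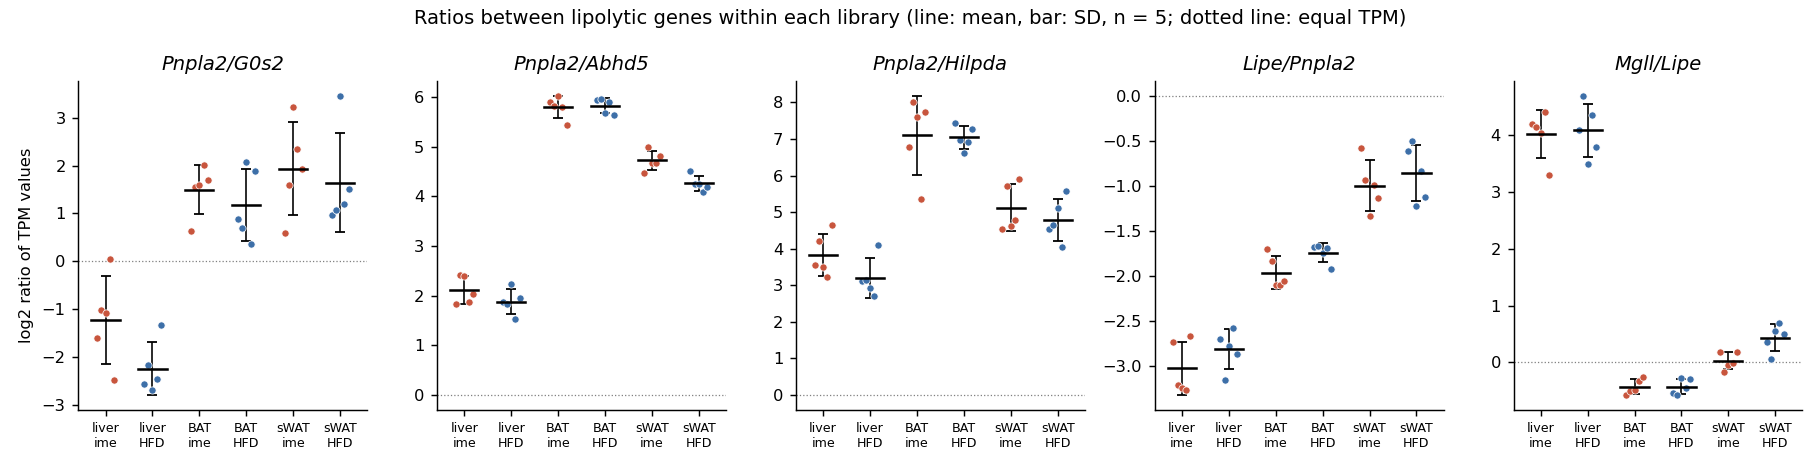
Each point is the log2 ratio of the TPM of the genes named above the panel in 1 library, with no pseudocount, by tissue and treatment (mean line, SD bar, n = 5, dotted line at equal TPM). Pnpla2/G0s2 lies below the dotted line in all liver libraries but 1, and above it in all BAT and sWAT libraries, and Mgll/Lipe lies below it in all BAT libraries.

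The lists of other genes around lipolysis differed in direction between liver and BAT. Of 21 lipases and esterases outside the 8, 19 were tested, and in liver minus BAT 15 were higher and 2 lower, where 44.4% of all genes were called higher. Those with the largest difference were Ces1c (8.38, adjusted p = 2.5e-09), Ces3a (8.26, adjusted p = 3.97e-10) and Ces3b (7.19, adjusted p = 3.6e-12), carboxylesterases of the Ces1 and Ces3 groups, and Aadac, an arylacetamide deacetylase (7.75, adjusted p = 1.98e-11). Ces1c stood at 2046 TPM or more in HFD liver, against 0.0623 to 19.1 TPM in HFD BAT. The part of hepatocyte transcript in the BAT values of these genes was not tested. Of 10 lipid droplet coat genes, 8 were lower and 1 higher in liver than in BAT, where 30.2% of all genes were called lower. Plin1, the perilipin that guards the droplet of fat cells and holds CGI-58 in the resting state, was at 0.0824 TPM or less in HFD liver and averaged 451 TPM in HFD BAT, whereas Cideb (5.41), a droplet protein of hepatocytes, was higher in liver. Of 21 genes of lipolysis signalling, 15 were lower and 3 higher in liver than in BAT, against the same 30.2% called lower. The lower ones were led by Prkar2b, a regulatory subunit of protein kinase A (-8.63, adjusted p = 2.06e-20), and Adrb3, the adrenergic receptor of fat cells (-4.82, adjusted p = 1.57e-10).

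With imeglimin in BAT, no member passed the threshold. The count was 0 of 8, where 0.868% of the 11402 genes tested were called, almost all of them lower. At an unadjusted p under 0.05 there were 3 of 8 members, all lower, where 23% of all genes were. The median over the members was -0.17 and over all genes -0.12, so the set moved little beyond the whole table.

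Pnpla3 came nearest. It stood at 86.9, 88.1, 92.5, 96.0 and 117.1 TPM in imeglimin BAT, against 119, 122, 137, 158 and 162 TPM in HFD BAT. The groups did not overlap, but the gap between them was narrow, and 6.81% of all genes had groups that did not overlap. The difference was -0.53 on the log2 scale (SE 0.108, 95% interval -0.77 to -0.29), with an adjusted p = 0.0504 in limma's test. It passed when HFD replicate 83 (adjusted p = 0.0472), imeglimin replicate 86 (0.0377) or imeglimin replicate 88 (0.0390) was left out, and over all 10 such fits it ran from -0.60 to -0.48. With median-ratio scaling it was -0.39 (adjusted p = 0.147), and without the muscle-rich libraries 79 and 94 together it was -0.56 (adjusted p = 0.206).

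Mgll and Lipe followed. Mgll stood at 223, 233, 253, 259.7 and 283 TPM in imeglimin BAT, against 283, 288, 298, 301 and 334 TPM in HFD BAT, so that the highest imeglimin library reached the lowest HFD library. The difference was -0.27 (SE 0.0722, adjusted p = 0.0778), and it passed only without imeglimin replicate 88 (adjusted p = 0.0339). Lipe stood at 279, 311, 325, 376 and 402 TPM in imeglimin BAT, against 347, 404, 406, 428 and 439.8 TPM in HFD BAT, a difference of -0.26 (SE 0.102, adjusted p = 0.149), and the groups overlapped.

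Pnpla2, by contrast, had nearly the same level in both groups. It stood at 1199, 1225, 1294, 1397 and 1435 TPM in imeglimin BAT, a wider spread than in HFD BAT, and the difference was -0.04 (95% interval -0.17 to 0.08, adjusted p = 0.679). Abhd5 (-0.02, 95% interval -0.26 to 0.22) and Ces1d (-0.06, 95% interval -0.27 to 0.16) also lay near 0. Median-ratio scaling moved the median of all genes in BAT by 0.12, and on that scale Pnpla2 (0.10), Abhd5 (0.12), Ces1d (0.088) and Hilpda (0.061) lay above 0, none past the threshold. For the inhibitors the data allow little: G0s2 differed by -0.36 with a 95% interval of -1.14 to 0.42, and Hilpda by -0.07 with an interval of -0.89 to 0.74. In imeglimin BAT, Hilpda was at 5.52 to 11.1 TPM in 4 libraries and at 29.3 TPM in replicate 91.

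In liver no member passed the threshold, 0 of 7 tested, and neither did any of the 11516 genes tested (0%), although 192 were higher and 292 lower at an unadjusted p under 0.05. None of the 7 reached even that. G0s2 had the largest difference, -0.82 (SE 0.425, 95% interval -1.76 to 0.11, adjusted p = 0.984). It stood at 40.8, 109, 112, 120.0 and 294 TPM in imeglimin liver, against 139, 167, 182, 212 and 347 TPM in HFD liver. In 4 of 5 imeglimin libraries it was below every HFD library, but replicate 94 was above 4 of the 5 HFD libraries. Pnpla2 differed by 0.17 (95% interval -0.19 to 0.54), and the ratio Pnpla2 over G0s2 was 0.180 to 1.03 with imeglimin and 0.155 to 0.401 with HFD, a difference of 0.998 on the log2 scale (exact permutation p = 0.0873, adjusted p = 0.327 over the 15 ratios and tissues).

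The other liver members were Hilpda (-0.35, 95% interval -0.80 to 0.10), Ces1d (-0.22, -0.57 to 0.13), Mgll (-0.10, -0.29 to 0.09), Abhd5 (-0.05, -0.27 to 0.18) and Lipe (-0.03, -0.41 to 0.35), each given as log2 difference and 95% interval. Pnpla3 was too low to be tested in liver, with 0 to 1.06 TPM with imeglimin and 0 to 2.92 TPM with HFD.

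In sWAT 0 of 8 members passed, where 0.0146% of 13736 genes did. Ces1d had the lowest p. It stood at 1284, 1354, 1362, 1833 and 2012 TPM in imeglimin sWAT, against 911, 993, 1117, 1231 and 1294 TPM in HFD sWAT, with only the lowest imeglimin library inside the HFD range. The difference was 0.49 (SE 0.157, 95% interval 0.14 to 0.83, unadjusted p = 0.0102, adjusted p = 0.32 in limma's test), and it was 0.53 without imeglimin replicate 88.

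Pnpla3 was at 234, 264, 390.1, 438 and 456 TPM in imeglimin sWAT, against 374, 417, 457, 573 and 626 TPM in HFD sWAT. The groups overlapped, and the difference was -0.48 (SE 0.213, 95% interval -0.95 to -0.01, adjusted p = 0.434), or -0.38 without imeglimin replicate 88. Pnpla2 was at 1459.7, 1737, 2535, 2675 and 2983 TPM in imeglimin sWAT, where 3 libraries stood above every HFD library and 1, replicate 88, below. Its difference was 0.30 (95% interval -0.13 to 0.73, adjusted p = 0.578) and 0.45 without replicate 88 (adjusted p = 0.247).

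Imeglimin replicate 88 was the lowest sWAT library of the 10 for Pnpla2, Lipe (768 TPM), Mgll (683 TPM), Abhd5 (45.7 TPM) and Hilpda (27.6 TPM). It is the library with few adipocyte markers. The part of those markers in these values was not tested. With it, the differences were 0.16 for Lipe, -0.24 for Mgll, -0.16 for Abhd5 and -0.04 for Hilpda. Without it they were 0.29, -0.06, 0.05 and 0.26 in the same order, none past the threshold in either fit. G0s2 (0.00, 95% interval -0.98 to 0.99) and Hilpda (-0.04, -0.84 to 0.77) had wide intervals.

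**Figure D4:**
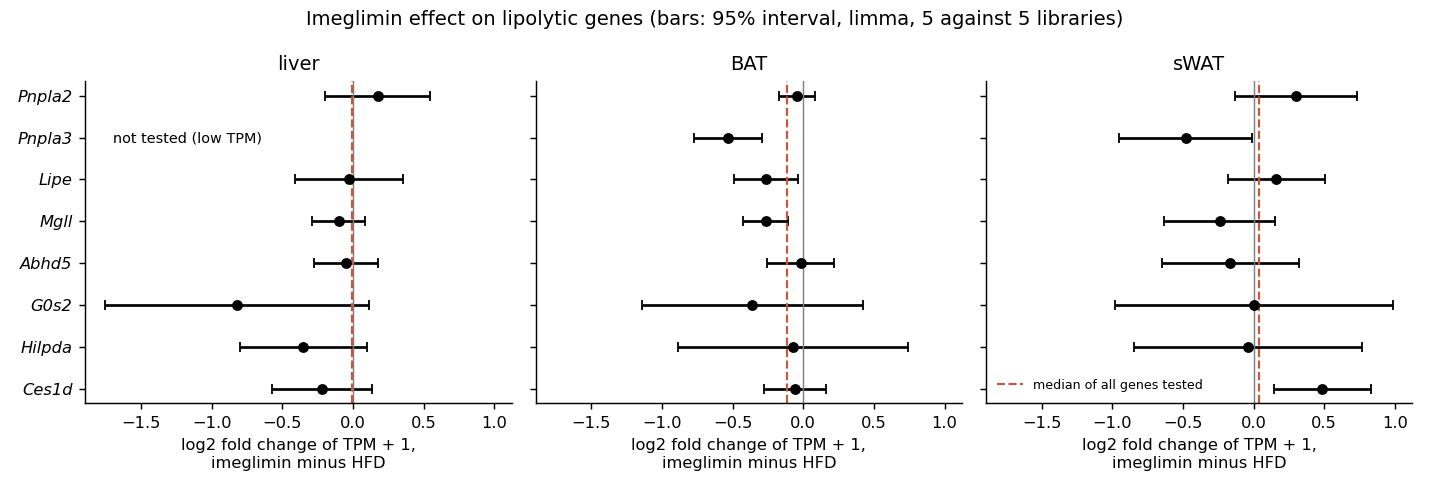
Points give the log2 fold change of TPM + 1, imeglimin minus HFD, with 95% intervals from limma (5 against 5 libraries) for each lipolytic gene in liver, BAT and sWAT, and the dashed line marks the median of all genes tested. Pnpla3 lies at -0.53 in BAT and -0.48 in sWAT, and the intervals of G0s2 and Hilpda are the widest.

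Pnpla3 and Pnpla2 parted in both fats, a feature picked out after the values had been seen and therefore given without a test. For each 100 TPM of Pnpla2 there were 6.30 to 9.56 TPM of Pnpla3 in imeglimin BAT and 9.03 to 12.1 in HFD BAT. In sWAT there were 7.86 to 25.2 with imeglimin and 22.3 to 35.7 with HFD. In each tissue 4 of 5 imeglimin libraries lay below every HFD library.

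Among the 15 ratios fixed for testing, none had an adjusted p under 0.05 with imeglimin. In sWAT, Pnpla2 over Abhd5 was 22.2 to 31.9 with imeglimin and 17.1 to 22.8 with HFD (difference 0.46 on the log2 scale, exact permutation p = 0.0159, adjusted p = 0.179). Mgll over Lipe was 0.890 to 1.13 with imeglimin and 1.04 to 1.61 with HFD in sWAT (difference -0.40, exact permutation p = 0.0238, adjusted p = 0.179). In BAT, Lipe over Pnpla2 was 0.233 to 0.307 with imeglimin and 0.265 to 0.316 with HFD (difference -0.22, exact permutation p = 0.0635, adjusted p = 0.317). The other ratios had larger p-values.

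Whether imeglimin acted differently between tissues was tested as an interaction over 14953 genes in all 30 libraries. In BAT minus sWAT, BAT minus liver and sWAT minus liver, no member was called, where 2.05%, 0.167% and 0.127% of all genes were. That is 0 of 8 members between BAT and sWAT, and in the contrasts with liver 0 of 7 besides Pnpla3, which was too low in liver for its own test there to say anything. Only Ces1d had an unadjusted p under 0.05. Its imeglimin difference in BAT minus that in sWAT was -0.55 (SE 0.21, adjusted p = 0.152), and that in sWAT minus that in liver was 0.71 (SE 0.21, adjusted p = 0.186). The difference of Pnpla3 in BAT minus sWAT was -0.05 with a 95% interval of -0.82 to 0.72.

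The genes around the pathway gave a setting for these values. In BAT, 7 of 10 lipogenic genes fell with imeglimin, where 0.868% of all genes tested were called, with a list median of -1.25 against -0.12 over all genes. Among them were Acly, which makes cytosolic acetyl-CoA, at 167 ± 80.7 TPM with imeglimin and 566 ± 167 TPM with HFD, and Fasn, the fatty acid synthase, at 669 ± 325 TPM with imeglimin and 1966 ± 509 TPM with HFD. Scd2, a stearoyl-CoA desaturase, was at 11.96 ± 3.33 TPM with imeglimin and 36.2 ± 8.38 TPM with HFD (-1.53, SE 0.187, adjusted p = 0.0291 in limma's test), and Acaca, acetyl-CoA carboxylase, at 58.2 ± 22.2 TPM with imeglimin and 160 ± 34.9 TPM with HFD (-1.50, SE 0.251, adjusted p = 0.0446). The list was chosen with earlier results of these data known, so its count beside that share is a description. The count stayed at 7 of 10 with a pseudocount of 0.1 and with all 30 libraries in the fit. It was 2 with median-ratio scaling and with constant prior variance. With no filter on low values, and without replicates 79 and 94 together, it was 0. With 1 library left out it ran from 0 to 8, while all 10 differences were negative in each of these fits. Scd2 passed with median-ratio scaling (-1.39, adjusted p = 0.0365) and Acaca did not (-1.35, adjusted p = 0.0967), and with 1 library left out each passed in 4 of 10 fits. No marker of another cell type passed the threshold in BAT. The differences of all 7 skeletal muscle markers were negative (list median -2.60), and their summed level had a median of 52.2 TPM with imeglimin and 601 TPM with HFD. Those of all 6 macrophage markers were negative too (list median -0.44), with sums of 59.2 to 104 TPM with imeglimin and 67.9 to 188 TPM with HFD. The part of either in the lipogenic change was not tested beyond the fit without replicates 79 and 94. With median-ratio scaling Acly and Fasn missed the threshold (adjusted p = 0.0986 for both), and with 1 library left out each passed in 3 of 10 fits, those without HFD replicate 83 or imeglimin replicates 86 or 88 (range of limma's adjusted p 0.0224 to 0.135 for Acly and 0.0159 to 0.135 for Fasn). Of 20 lipolysis signalling genes tested in BAT, 1 fell: Ptger3, a prostaglandin E2 receptor that restrains cyclic AMP, was at 11.6 ± 1.82 TPM with imeglimin and 17.8 ± 1.35 TPM with HFD (-0.59, SE 0.0974, adjusted p = 0.0446). Of 10 glycerol and fatty acid handling genes, 1 fell: Fabp5, a fatty acid binding protein, was at 14.7 ± 1.04 TPM with imeglimin and 19.2 ± 1.61 TPM with HFD (-0.36, adjusted p = 0.0485). Neither passed with median-ratio scaling (adjusted p = 0.0986 for Ptger3 and 0.162 for Fabp5). With 1 library left out, Ptger3 passed in the same 3 of 10 fits (adjusted p 0.0132 to 0.135), and Fabp5 in 2, those without HFD replicate 83 or imeglimin replicate 88 (adjusted p 0.0297 to 0.14). These SDs are over 5 libraries.

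No lipid droplet coat gene passed in BAT, 0 of 10. Plin2, the coat protein that follows droplet content in many cells, was at 289.6 ± 58.6 TPM with imeglimin and 403 ± 52.1 TPM with HFD (-0.49, adjusted p = 0.0825), and Cidea, which enlarges droplets in brown fat, at 2147 ± 105 TPM and 1895 ± 119 TPM (0.18, adjusted p = 0.0961). None of the 14 other lipases and esterases tested passed, with Ddhd2 (-0.48, adjusted p = 0.0976, or 0.038 without imeglimin replicate 88) and the lysosomal lipase gene Lipa (-0.25, adjusted p = 0.21) having the lowest p. None of 14 transcription factor genes passed, with Hif1a (-0.32, adjusted p = 0.0838) and Ppara (-0.51, adjusted p = 0.235) the lowest in p.

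In sWAT and liver no gene of these 6 lists passed. In sWAT, the genes of lowest p in the lists were Adrb3 (1.16, adjusted p = 0.248) and Adrb1 (0.67, adjusted p = 0.269), adrenergic receptors that start lipolysis, Fabp5 (-0.88, adjusted p = 0.248), Plin2 (-0.64, adjusted p = 0.307), Bscl2, the seipin gene (-0.62, adjusted p = 0.25), Hif1a (-0.35, adjusted p = 0.248), Foxo1 (0.30, adjusted p = 0.338), Ddhd1 (0.51, adjusted p = 0.355) and the lipoprotein lipase gene Lpl (-0.48, adjusted p = 0.422). The glycerol kinase gene Gk (-0.44, adjusted p = 0.36) and the lipogenic genes Scd2 (-1.10, adjusted p = 0.248) and Me1 (-0.87, adjusted p = 0.248) complete them. Adrb3 was at 175 to 205 TPM in imeglimin sWAT and at 55.0 to 211 TPM in HFD sWAT, so 1 HFD library, replicate 83, was higher than any with imeglimin. Without it, Adrb3 passed (1.49, adjusted p = 0.00203 in limma's test). With 1 library left out, Adrb3 passed in only this 1 of 10 fits (limma's adjusted p 0.00203 to 0.564). In liver Cidea was at 1.36 to 12.9 TPM with imeglimin and 8.54 to 37.6 TPM with HFD (-1.68, adjusted p = 0.984), and Angptl4, an inhibitor of lipoprotein lipase, at 81.8 to 134 TPM and 50.8 to 125 TPM (0.41, adjusted p = 0.984). All other liver genes that the rule names also had an adjusted p = 0.984.

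Of these lists, 4 genes differed between BAT and sWAT in their imeglimin difference, where 2.05% of all genes tested were called. They were 1 of 21 lipolysis signalling genes tested, and 1 of 10 each for lipid droplet coat, glycerol and fatty acid handling, and lipogenic genes. No call was made among 19 other lipases and esterases or 14 transcription factor genes. The genes called were Adrb1 (-1.35, adjusted p = 0.014), Acsl5, an acyl-CoA synthetase (-0.84, adjusted p = 0.0425), Acaca (-1.43, adjusted p = 0.0123), and Bscl2 (0.63, adjusted p = 0.0431). Acaca also differed between BAT and liver (-1.46, adjusted p = 0.0328), a call lost with median-ratio scaling (-1.33, adjusted p = 0.0797) and with no filter on low values, and made in 4 of 10 fits with 1 replicate number left out. None of the 4 passed in BAT minus sWAT with median-ratio scaling (adjusted p 0.0612 to 0.166), and with 1 replicate number left out Adrb1 passed in 7 of 10 fits, Acaca in 9, Bscl2 in 4 and Acsl5 in 3. Adrb1 was at 5.81 ± 1.85 TPM with imeglimin and 9.96 ± 3.08 TPM with HFD in BAT, and at 5.02 ± 1.2 TPM with imeglimin and 2.81 ± 0.918 TPM with HFD in sWAT (SD, n = 5 each).

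The genes most like each member over the 30 libraries were found by Pearson's r of log2(TPM + 1) among 12506 candidates. This likeness rests mainly on the 3 tissues, which the libraries share, and is a description. Pnpla2 was closest to Slc24a3 (0.996), Rgcc (0.996) and Prkar2b (0.995), and Lipe to Tmem45b (0.998), Ppp1r9b (0.998) and Plin1 (0.997). Pnpla3 was closest to Pmepa1 and G6pdx (0.992 each), and to Ppip5k1 (0.992). G6pdx encodes the first enzyme of the pentose phosphate pathway. Mgll was closest to Ano10 (0.997), Cd151 (0.997) and Rragc (0.996), and Abhd5 to Eps8, Fitm2 (0.987 each) and Sgce (0.986). Hilpda was closest to Ednrb (0.968), Ifrd1 (0.967) and Hspa2 (0.966), and Ces1d to Fgf11 (0.968), Negr1 and Sh3pxd2a (0.967 each). The highest values of G0s2 were 0.876 for Plekhh3, 0.848 for Zswim3 and 0.845 for Ptpru.

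Within the 10 sWAT libraries, after subtracting each group's mean, the likeness is described among 12929 candidates, with replicate 88 included. That library was the lowest of the 10 for Pnpla2, Lipe, Mgll, Abhd5 and Hilpda, and its part in these values was not tested. Each r is among the highest of 12929 over only 10 libraries, so a high value is no evidence of a link. Pnpla3 was then closest to Lss (0.954) and Nsdhl (0.946), enzymes of cholesterol synthesis, and to Agpat2 (0.947), an enzyme of triglyceride synthesis. Pnpla2 was closest to Steep1 (0.955), Acss3 (0.946) and Osbpl11 (0.940), Lipe to Tln2 (0.988), Rab10 (0.981) and Qsox2 (0.975), and Mgll to Cd59a (0.986), Hspg2 (0.983) and Nomo1 (0.981). Abhd5 was closest to Ctla2b (0.973), Capn2 (0.959) and Crat (0.954), and Ces1d to Ivd (0.961), S100a1 (0.955) and Clpb (0.919). G0s2 was closest to Rasd1 (0.971), Psmc4 (0.960) and Tmem129 (0.960), and Hilpda to Tsc22d2 (0.939), Bdnf (0.938) and Zfp697 (0.936).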

How the data were processed

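RNA was measured in 30 libraries, 5 for each of 3 tissues and 2 treatments. Per the labels' protocols, the libraries were strand-specific, made with NEB kits from poly(A)-selected RNA. STAR and RSEM were used with build GRCm39, per the submitters' processing notes; no version, annotation or filter is named in the sources used. The values the authors deposited are TPM, which keep no depth, so no counting interval is given. All sample columns were used, and no columns were identical.

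Members were taken by symbol. The members, gene lists and tests were chosen with earlier results of these data known. Tests on log2(TPM + 1) used limma 3.58.1 under R 4.3.3 (moderated test, trended variance, two-sided, Benjamini-Hochberg over all genes tested, threshold 0.05), on genes that reached 1 TPM in 5 or more libraries of the fit. A fold change on this scale understates the change of low genes. Each tissue was fitted alone for imeglimin minus HFD, the 15 HFD libraries together for tissues, and all 30 for interactions. Replicate numbers recur across the 3 tissues, and these fits treated the libraries as independent. Ratios were tested by exact permutation with SciPy 1.17.1 (Python 3.11.15). Likeness between transcripts was searched with BLAST+ 2.17.0. The labels give no batch. The steps were tested on simulated data.

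The text names all members, the 3 genes most like each, and of each list up to 4 genes past the threshold by size, or up to 2 of lowest p where none passed. Alternatives were a pseudocount of 0.1, no filter, median-ratio scaling, constant prior variance, all libraries in the fit, a replicate block, imeglimin libraries for the tissue contrasts, and leaving out libraries. Leaving out BAT replicates 79 and 94 together for the ratios, and ratios with nothing added to TPM, were chosen after seeing the data.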

Additional observations from a re-analysis of the deposited data

Results flagged for a closer look

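In 48 sets of 5 libraries (8 genes in 6 groups), 3 held a library far from the other 4, by a rule that chance meets in about 1 set in 20. Lipe was at 767.7 TPM in imeglimin sWAT replicate 88, where the next lowest library had 1163 TPM; that library also had the lowest adipocyte marker sum, and the part of this in the value was not tested. G0s2 was at 182.8 TPM in HFD sWAT replicate 79, where the next lowest had 696.5 TPM. Hilpda, the other inhibitor of ATGL, was at 29.32 TPM in imeglimin BAT replicate 91, where the next highest had 11.13 TPM.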

How the results depend on the processing

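No member passed the threshold with imeglimin in liver or sWAT under any alternative run, and in BAT none did except when 1 library was left out (0 to 2 members). The number of all genes called in BAT, 99, was 0 with no filter, 5 with median-ratio scaling, 10 with constant prior variance, 398 with all 30 libraries in the fit, 0 without replicates 79 and 94 together, and 0 to 698 with 1 library left out. In sWAT the 2 calls became 0 with no filter and with constant prior variance, 1 with median-ratio scaling, 553 with all 30 libraries, and 0 to 4 with 1 left out; in liver all 30 libraries gave 2. For interactions, the 306 calls in BAT minus sWAT became 202 with a pseudocount of 0.1, 32 with median-ratio scaling and 47 to 901 with 1 replicate number left out. The 25 in BAT minus liver became 5 with no filter, 10 with median-ratio scaling and 0 to 65. The 19 in sWAT minus liver became 2 with a pseudocount of 0.1 and with median-ratio scaling, and 0 to 92. The cause was not tested. Replicate numbers were not used as pairs, since same-numbered libraries did not deviate together in every pair (the correlations ran from -0.484 to 0.31). The lowest was that of imeglimin replicate 88 in BAT and sWAT, whose sWAT library held B cell and hepatocyte transcripts. Imeglimin replicate 94 had -0.215 in the same tissues. In BAT and sWAT on HFD 4 of 5 correlated best with their own number, a hint from the data, and the labels used do not say whether a number is a shared animal. With a replicate block, sWAT minus liver gave 31 calls, and no member's call changed. Direction turned with median-ratio scaling in BAT for Pnpla2 (0.10), Abhd5 (0.12), Hilpda (0.061) and Ces1d (0.088), in sWAT for G0s2 (-0.026), and in BAT minus sWAT on HFD for Pnpla2 (1.07), Lipe (0.19) and Ces1d (1.005). G0s2 in BAT minus sWAT was -0.31 in imeglimin libraries and -0.14 to 0.31 with 1 number left out. Without BAT replicates 79 and 94 together, Hilpda was 0.18, Ces1d 0.00051, Pnpla2/Abhd5 0.024 and Pnpla2/Hilpda -0.22. With 1 library left out, the imeglimin difference in BAT ran from -0.10 to 0.029 for Abhd5, -0.45 to 0.11 for Hilpda and -0.11 to 0.0043 for Ces1d, in liver from -0.14 to 0.062 for Lipe and -0.10 to 0.029 for Abhd5, and in sWAT from -0.29 to 0.047 for Abhd5, -0.41 to 0.22 for G0s2 and -0.27 to 0.26 for Hilpda. Among ratios it ran from -0.079 to 0.061 for Pnpla2/Abhd5, -0.18 to 0.44 for Pnpla2/Hilpda and -0.044 to 0.036 for Mgll/Lipe in BAT, -0.21 to 0.091 for Mgll/Lipe in liver, and -0.027 to 0.75 for Pnpla2/G0s2 in sWAT. Depth is unknown, so how far it limits low genes such as Hilpda and Pnpla3 in liver cannot be given.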
